A study of Mus musculus with 16 samples.

Results

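Mt1, Slc39a4, Tfrc and Ftl1 encode proteins that bind, import or store zinc and iron, and their transcripts were followed across 16 RNA sequencing libraries of mouse duodenal epithelium. They were found by symbol in the authors' deposited table, and all 4 were among its 2438 genes. The study asked what changes in the proximal small intestine when its epithelium lacks EphB4, a receptor tyrosine kinase for ephrin-B ligands, in mice made obese by diet. The 9 flox libraries came from mice whose Ephb4 alleles were flanked by recombination sites (Ephb4 fl/fl), and the 7 KO libraries from mice in which Ephb4 had been deleted in intestinal epithelial cells (Ephb4-IKO). Both groups carried the floxed alleles, entered at 8 weeks of age and were kept on high fat feeding for 19 weeks, so no group on another diet stands beside them. The samples are labelled duodenal epithelium, while the series design speaks of proximal small intestine tissue. The sources used here do not name the recombinase line. The libraries were numbered 1 to 7, 9 and 10 in flox and 1 to 5, 7 and 8 in KO.

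Zinc enters the enterocyte from the gut lumen through importers of the ZIP family and leaves it through exporters of the ZnT family. Inside the cell, metallothioneins bind zinc and copper, and the transcription factor MTF1 switches their genes on when free zinc rises, by binding short metal response elements. Glucocorticoids and inflammatory signals also raise metallothionein transcripts. Iron bound to transferrin enters most cells through the transferrin receptor, and spare iron is stored inside ferritin, a shell of heavy and light chains. When iron is scarce, iron regulatory proteins bind hairpins called iron-responsive elements. This protects the transferrin receptor mRNA from decay and blocks translation of ferritin mRNA. The duodenum is the main site of iron absorption from food.

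The members were selected on the adjusted p and fold change of the authors' deposited table, that is, on a KO against flox contrast of these same libraries. Their KO against flox differences are therefore descriptions and carry no test here. The table held only genes with an adjusted p of at most 0.0497, which is 14.8% of the 16488 genes the authors adjusted over, with 6.97% listed as higher in KO and 7.81% as lower. The authors' adjusted p was 3.89e-17 for Mt1, 0.0266 for Slc39a4, 0.0379 for Ftl1 and 0.0394 for Tfrc, so the last 3 lay near the limit of the table. Inside the limit the last genes were Qsox1 at 0.0497 and Ifi27 and Arfgap3, also at 0.0497. Genes just outside it were not analysed here. An edgeR fit on recovered reads, with unlisted genes set to a p of 1, called 8.75% of the 16488 genes, and nothing is read from it about the members.

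Values are normalised counts, which are reads per gene divided by a size factor for each library. Reads in listed genes ran from 3592468 to 5316273 per library, and the total depth is unknown. Ephb4 was at 102.7 to 353.8 normalised counts in the flox libraries and at 23.3 to 84.7 in the KO libraries, with no overlap. Of 15 mature enterocyte markers 7 were listed, and their summed level was 579120 to 822177 in flox and 379069 to 621080 in KO, so epithelial transcripts were abundant in every library. Flox replicates 4, 6, 7, 9 and 10 held transcripts of pancreatic acinar cells, with a sum over 20 listed acinar genes of 7034 to 144670, against 399.2 to 521.6 in the other 4 flox libraries and 403.1 to 1744 in KO. Non-epithelial markers that were listed, all higher in KO (7 of 20 lymphocyte genes, 2 of 8 mast cell genes and 4 of 18 genes of stroma and endothelium), summed to 813.6 to 2090 in flox and 970.5 to 3754 in KO. Listed proliferation markers (18 of 25, all higher in KO) summed to 1197 to 3880 in flox and 2976 to 6493 in KO. None of 11 macrophage markers, 10 erythroid markers or 11 Paneth cell markers was listed. The share listed was 84% for acinar genes (21 of 25, all lower in KO), of which the sum above used 20. The share was 72% for proliferation, 46.7% for enterocytes and 35% for lymphocytes. It was 25% for mast cells and 22.2% for stroma and endothelium, against 14.8% of all genes adjusted over. The part of these cells in the differences below was not tested, and in bulk tissue a change in the number of cells of a type and a change in RNA per cell cannot be told apart.

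Mt1, the metal-binding metallothionein 1 (chr8:94179082-94180327, plus strand, GRCm38, ENSMUSG00000031765), was higher in every KO library than in every flox library. In flox it ran from 1526 normalised counts in replicate 3 through a median of 3358 to 5242 in replicate 10. In KO it ran from 8728 in replicate 1 through a median of 14281 to 19274 in replicate 5. The lowest KO library thus stood above the highest flox library, a separation that 7.26% of the listed genes showed. The means were 3093 ± 1414 (SD, n = 9) and 14331 ± 3151 (SD, n = 7), a 4.63-fold difference (log2 2.21 in the authors' deposited table). Libraries varied more in flox, where the highest library had 3.44 times the lowest, than in KO, where it had 2.21 times.

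The KO excess of Mt1 was present against both kinds of flox library. The 5 flox libraries with pancreatic transcripts held 1705 to 5242 normalised counts of Mt1 and the other 4 held 1526 to 3371. Flox replicate 10, which had the most pancreatic transcript, had 5242, and flox replicate 9, with far less, had 5153. On the log2 scale the KO minus flox difference was 2.32 ± 0.26 (SE) with all libraries, 2.59 without those 5 and 2.29 with a covariate for the mean log2 level of the non-epithelial markers. With TMM scaling over the listed genes, which moved their median difference by 0.14, Mt1 was 5.12-fold higher in KO. Its groups still did not overlap, with 9473 in the lowest KO library and 5099 in the highest flox library.

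The promoter of Mt1 is printed because letters matching the metal response elements that metallothionein genes are known for can be read in it. The window is from RefSeq (GRCm38.p6, chr8:94178839-94179138, plus strand), with 250 bases before the transcription start and 50 after it. Capitals mark each match to the core letters TGCACNC or TGCGCNC, which were searched on both strands and do not overlap here.
Mt1 promoter: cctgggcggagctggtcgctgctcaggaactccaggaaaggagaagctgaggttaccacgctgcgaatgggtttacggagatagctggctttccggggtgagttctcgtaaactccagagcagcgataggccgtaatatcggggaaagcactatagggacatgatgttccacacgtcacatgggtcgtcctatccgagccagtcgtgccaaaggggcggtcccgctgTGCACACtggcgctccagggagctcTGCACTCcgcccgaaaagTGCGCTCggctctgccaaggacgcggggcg
The window held 3 matches, all on the plus strand, at offsets of -23, 2 and 20 bases from the start used. The last 2 thus lay after that start, and a window around another start could hold a different number. Of 32851 promoter windows of the same length, 25.7% held at least 1 match and 1.97% held at least 3. The neighbouring metallothionein gene Mt2 had 4 matches in its window. Of the other members, Ftl1 had 0, and the windows of Tfrc had 0 and 2. A window was found for 3 of the 4 members, Slc39a4 being the other. A match is a run of letters, not a measured binding site.

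Mt2 was not in the deposited table, so its level was not analysed here. The coding sequences of Mt1 and Mt2 were 79.2% identical over 183 bases, and none of the 500 stretches of 50 bases in the Mt1 transcript occurred in the Mt2 transcript. No other annotated gene overlapped Mt1.

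**Figure D1:**
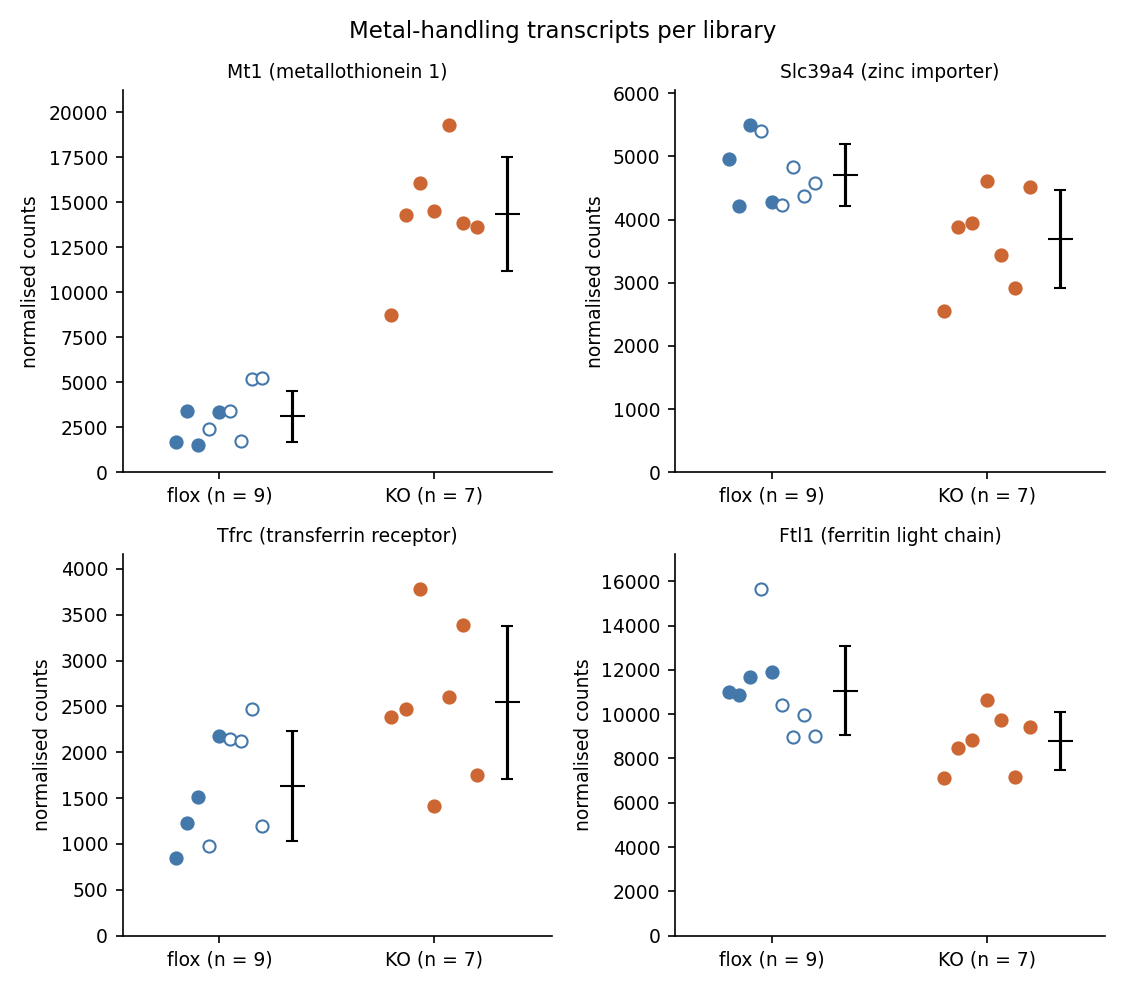
Normalised counts (y axis, from 0) of Mt1, Slc39a4, Tfrc and Ftl1 in 9 flox (blue) and 7 KO (orange) libraries. Open points are the 5 flox libraries with pancreatic transcripts, and black marks give the mean ± SD. The groups are apart for Mt1 and overlap for the other 3 genes.

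Slc39a4, the ZIP family importer that takes up dietary zinc at the apical membrane of enterocytes (chr15:76612383-76617384, minus strand, GRCm38, ENSMUSG00000063354), was lower in KO, with overlap. In flox it ran from 4217 normalised counts in replicate 2 through a median of 4572 to 5495 in replicate 3. In KO it ran from 2556 in replicate 1 through a median of 3882 to 4607 in replicate 4. Of the 7 KO libraries 5 lay below every flox library, and KO replicates 4 and 8 lay within the flox range. The means were 4706 ± 494 (SD, n = 9) and 3692 ± 772 (SD, n = 7), a 1.27-fold difference (log2 -0.35 in the authors' deposited table).

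The size of the Slc39a4 difference varied with the scaling and with a covariate. It was -0.37 ± 0.11 (SE) on the log2 scale, -0.38 without the 5 flox libraries with pancreatic transcripts and -0.12 ± 0.15 (SE) with the non-epithelial covariate. That covariate averages 13 markers, all listed as higher in KO, and its mean was 5.14 in flox and 6.28 in KO. It follows the group by the way it was made, so the smaller value cannot separate cell content from genotype. With TMM scaling the Slc39a4 difference was -0.23, and with quantile normalisation -0.045. Both scalings were computed over the listed genes only, which were selected for a group difference and were mostly lower in KO when abundant. Such scalings take most genes to be unchanged, so these values cannot show what a scaling over all genes would give. KO replicate 1, which had the lowest Slc39a4, also had the highest non-epithelial sum and the lowest enterocyte sum of all 16 libraries. Without that library the difference was -0.29.

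Tfrc, the transferrin receptor through which cells take up transferrin-bound iron (chr16:32608920-32632794, plus strand, GRCm38, ENSMUSG00000022797), was higher in KO and varied widely in both groups. In flox it ran from 851.2 normalised counts in replicate 1 through a median of 1515 to 2475 in replicate 9. In KO it ran from 1417 in replicate 4 through a median of 2468 to 3784 in replicate 3. Of the KO libraries 3 lay above every flox library and 6 above the flox median, and KO replicates 4 and 8 lay among the middle flox libraries. The means were 1630 ± 602 (SD, n = 9) and 2543 ± 835 (SD, n = 7), a 1.56-fold difference (log2 0.64 in the authors' deposited table). On the log2 scale the difference was 0.67 ± 0.25 (SE), and it was 0.83 both without the 5 flox libraries and with the non-epithelial covariate.

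Within the flox group Tfrc tended to be high where proliferation markers were high, though not past an adjusted p of 0.05. The correlation of Tfrc with the mean log2 level of 18 listed proliferation genes was r = 0.83 over 9 flox libraries (rho = 0.83), with a two-sided exact permutation p of 0.00881 and an adjusted p of 0.112 over 32 such relations. It was r = 0.68 without the 2 libraries farthest from the median score. In KO it was r = 0.57 over 7 libraries (rho = 0.54, exact permutation p = 0.178). Tfrc also correlated with the level of Ephb4 in flox (r = 0.90, rho = 0.73, exact permutation p = 0.00327, adjusted p = 0.105), with r = 0.86 without the 2 farthest libraries, and not detectably in KO (r = 0.13, rho = 0.18, exact permutation p = 0.776). None of the 32 relations of a member with Ephb4 or a marker score passed an adjusted p of 0.05, and 4 had an unadjusted exact p below 0.05.

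The iron-responsive elements that a search found in Tfrc are printed because such elements are the known route by which iron acts on its mRNA. Transcript sequences were from GENCODE M21 (GRCm38). The search, on the transcript strand, asked for a C, then 5 bases, then CAGTG and a base other than G. The 5 bases on either side of this loop had to pair (G with T allowed). Whether the C was unpaired was not checked, and an element of another form would be missed. Capitals mark the loop. The Tfrc transcript of 4890 bases held 4 such elements, all in the part after the coding sequence, at chr16:32631220-32631246, chr16:32631599-32631625, chr16:32631664-32631690 and chr16:32631711-32631737 on the plus strand.
Tfrc element 1: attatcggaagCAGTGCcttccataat
Tfrc element 2: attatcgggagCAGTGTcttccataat
Tfrc element 3: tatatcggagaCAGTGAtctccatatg
Tfrc element 4: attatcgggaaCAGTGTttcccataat
Of 58797 protein-coding transcripts 0.725% held at least 1 element by this search, and this Tfrc transcript was the only 1 with at least 4.

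Ftl1, the ferritin light chain (chr7:45457944-45459884, minus strand, GRCm38, ENSMUSG00000050708), was lower in KO, with overlap. In flox it ran from 8984 normalised counts in replicate 7 through a median of 10865 to 15662 in replicate 4. In KO it ran from 7133 in replicate 1 through a median of 8850 to 10645 in replicate 4. All 7 KO libraries lay below the flox median, and 4 lay below every flox library. The means were 11050 ± 2012 (SD, n = 9) and 8777 ± 1301 (SD, n = 7), a 1.26-fold difference (log2 -0.33 in the authors' deposited table). On the log2 scale the difference was -0.33 ± 0.11 (SE), -0.26 without flox replicate 4, -0.38 without the 5 flox libraries with pancreatic transcripts and -0.32 with the non-epithelial covariate. It was -0.18 with TMM scaling and 0.023, of the other sign, with quantile normalisation. Both scalings used only the listed genes, which were selected for a group difference, so the sign under a scaling over all genes is not shown.

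The ferritin light chain mRNA carried a single element by the same search, in the part before the coding sequence (chr7:45459780-45459806, minus strand). The same 27 bases stood in Ftl1-ps1 (chr13:74406429-74406455, plus strand), a near copy of Ftl1 that GENCODE M21 annotates as protein coding.
Ftl1 element: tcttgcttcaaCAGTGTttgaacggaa
Ftl1-ps1 element: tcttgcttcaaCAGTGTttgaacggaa
The copy matters for the counts of Ftl1. Their coding sequences, each of 549 bases, differed at 2 positions, and both lie in the stretch from coding base 415 to 504, printed with the differing bases in capitals (chr7:45458155-45458244, minus strand, and chr13:74407018-74407107, plus strand).
Ftl1 coding: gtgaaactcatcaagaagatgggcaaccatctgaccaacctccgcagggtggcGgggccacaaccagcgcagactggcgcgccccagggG
Ftl1-ps1 coding: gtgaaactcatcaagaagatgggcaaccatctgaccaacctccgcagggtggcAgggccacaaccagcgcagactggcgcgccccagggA
Of 919 stretches of 50 bases in the Ftl1 transcript 73.4% occurred unchanged in the Ftl1-ps1 transcript, so how reads were divided between them is uncertain. Ftl1-ps1 was itself listed as lower in KO, with 244.0 ± 83.9 normalised counts in flox (SD, n = 9) and 164.8 ± 25.0 in KO (SD, n = 7). The sum of both was 11294 ± 2093 in flox and 8942 ± 1317 in KO, and its log2 difference was -0.33, as for Ftl1 alone. The unlisted genes Gm10252, on the opposite strand, and Gm22133 overlap Ftl1, and the sources used here do not say whether the counting used strand.

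Most abundant genes in the table were lower in KO, and the members fell on both sides. Of 768 listed genes whose mean reached 1000 normalised counts, 56 were higher and 712 lower. By the authors' log2 fold change Mt1 ranked 1 and Tfrc 5 among those 56. Slc39a4 ranked 383 and Ftl1 431 among the 712, and the lower ones had a median of -0.36 (log2, the authors' deposited table), close to the values of -0.35 and -0.33 for these genes. By these values Mt1 stood far from listed genes of its abundance, while Slc39a4 and Ftl1 lay in the middle of theirs. The ranks use the values on which the members were chosen, so they are descriptions and test nothing.

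**Figure D2:**
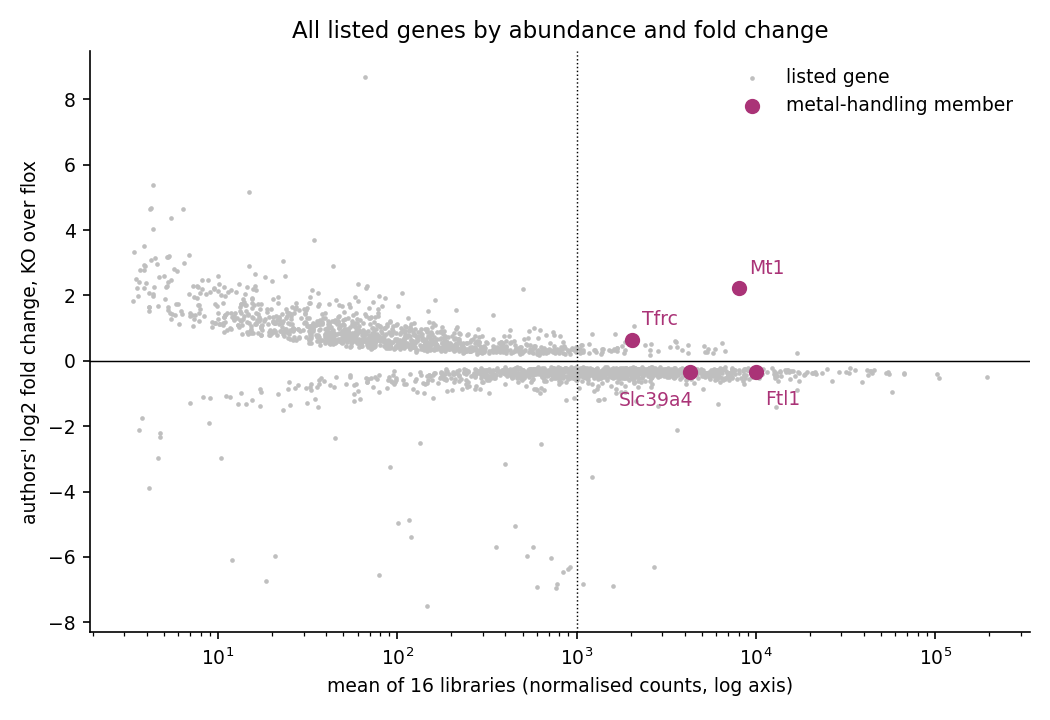
Fold change, KO over flox, on the log2 scale from the authors' table (y axis) against the mean of the 16 libraries (x axis, normalised counts, log scale) for all 2438 listed genes in grey and the 4 members in purple. The dotted line marks 1000 normalised counts. Mt1 lies above every other gene to the right of it, and Slc39a4 and Ftl1 lie within the band of lower genes.

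Per kilobase of the gene length in the deposited table, ferritin light chain was the most abundant member in flox, at 8246 ± 1502 normalised counts per kb (SD, n = 9). Mt1 followed at 2482 ± 1135, Slc39a4 at 1515 ± 159 and Tfrc at 263.6 ± 97.4. The ranges of Mt1 (1225 to 4207 per kb) and Slc39a4 (1358 to 1769 per kb) overlapped, so their order in flox lies within the spread, while the other neighbours were apart. In KO the order was Mt1 at 11502 ± 2529 per kb (SD, n = 7), Ftl1 at 6550 ± 971, Slc39a4 at 1189 ± 249 and Tfrc at 411.1 ± 134.9. There the ranges of Mt1 (7005 to 15469 per kb) and Ftl1 (5323 to 7944 per kb) overlapped, and the ranges of the other neighbours did not. The deposited length was 1246 bases for Mt1, its whole gene span, against 549 in its transcript, and 1340 for Ftl1 against 968. The values per kb thus understate Mt1 most, and its place and overlaps in both groups depend on the length used.

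Ratios within a library show the same members without the size factor. For each Slc39a4 normalised count there were 0.278 to 1.18 of Mt1 in flox and 3.02 to 5.61 in KO, with no overlap. The ratio of Tfrc to Ftl1 was 0.0625 to 0.249 in flox, with a median of 0.132, and 0.133 to 0.472 in KO, with a median of 0.291, with overlap. KO replicates 4 and 8 had the lowest Tfrc to Ftl1 ratios of their group, 0.133 and 0.187, and also the highest Slc39a4 levels of their group. The directions of these ratios follow from how the members were chosen.

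Within groups the 4 members were compared in 6 pairs each, which the choice of members did not use. None of the 12 correlations passed an adjusted p of 0.05, and 2 had an unadjusted exact permutation p below 0.05. In KO, Slc39a4 and Ftl1 were high and low in the same libraries (r = 0.85, rho = 0.79, n = 7, exact permutation p = 0.0163, adjusted p = 0.195). That relation rests on KO replicates 1 and 7, since r was 0.38 without these 2. In flox the same pair had r = 0.47 (rho = 0.28, n = 9, exact permutation p = 0.201) and r = -0.39 without replicates 3 and 4.

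Mt1 and Slc39a4 had correlations of different sign in the groups. In flox r was -0.71 (rho = -0.67, n = 9, exact permutation p = 0.0363, adjusted p = 0.218), and -0.53 without the 2 libraries farthest from the median of Mt1. In KO r was 0.52 (rho = 0.32, n = 7, exact permutation p = 0.240), and 0.11 without the 2 farthest. The difference between the groups was not tested. Tfrc and Ftl1 had negative values in both groups (r = -0.41 and rho = -0.25 in flox, r = -0.58 and rho = -0.36 in KO), neither past the threshold (exact permutation p = 0.289 and 0.180).

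Slc39a4 tended to be high where enterocyte markers were high, though not past an adjusted p of 0.05. Its correlation with the mean log2 level of 7 listed enterocyte genes was r = 0.73 in flox (rho = 0.78, n = 9, exact permutation p = 0.0250, adjusted p = 0.20) and r = 0.88 in KO (rho = 0.75, n = 7, exact permutation p = 0.0105, adjusted p = 0.112). Without the 2 libraries farthest from the median score r was 0.46 and 0.78. For Mt1 the same correlation was -0.19 in flox (rho = -0.18, exact permutation p = 0.622) and 0.51 in KO (rho = 0.14, exact permutation p = 0.220). With the non-epithelial score Mt1 had r = 0.35 in flox (rho = 0.50, n = 9, exact permutation p = 0.368). In KO it had r = -0.50 (rho = -0.54, n = 7, exact permutation p = 0.264), and neither passed the threshold. With that score Slc39a4 had r = -0.63 in flox (rho = -0.85, exact permutation p = 0.0614 for r and 0.00607 for rho). The adjusted p was 0.281 and 0.132, and r was -0.47 without the 2 farthest libraries. In KO r was -0.47 (rho = -0.39, exact permutation p = 0.293). With the proliferation score Slc39a4 had r = -0.68 in flox (rho = -0.58, exact permutation p = 0.0503). The KO value was r = -0.75 (rho = -0.68, exact permutation p = 0.0526).

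The genes most like each member were found from log2 levels centred within each group, over 16 libraries and 1697 other listed genes whose mean reached 100. The values of r are descriptions, and all genes of a library share its size factor. Mt1 was most like the ribosomal protein genes Rps12 (r = 0.69), Rpl10 (0.66) and Rpl29 (0.65), and least like Phf13 (-0.72), Zfp451 (-0.67) and Pgm3 (-0.66). Tfrc was most like Rpl5 (0.86), the pseudogene Rpl3-ps1 (0.85) and Rps26 (0.85), and least like Ap5b1 (-0.87), Rbm5 (-0.82) and the lipid droplet gene Cidec (-0.81). Slc39a4 was most like the mitochondrial carrier Slc25a10 (0.93), the cytochrome gene Cyb5b (0.89) and the butyrophilin-like gene Btnl1 (0.89), and least like Nedd4 (-0.80), Anp32e (-0.80) and Cpsf6 (-0.77). Ftl1 was most like its near copy Ftl1-ps1 (0.84), Acbd4 (0.80) and Zfp994 (0.80), and least like Rapgef5 (-0.84), Mad2l1 (-0.76) and Rps6kb1 (-0.75).

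Ribosomal protein genes, a set looked at after these values were seen, divided the members. Across 19 such genes the median r was 0.76 with Tfrc (0.38 to 0.86) and 0.51 with Mt1 (0.073 to 0.69). It was -0.53 with Slc39a4 (-0.68 to -0.25) and -0.25 with Ftl1 (-0.43 to -0.025). Over all 1697 genes the medians were, in the same order, -0.080, 0.019, 0.26 and 0.13. Of the 19, 18 were listed as higher in KO.

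**Figure D3:**
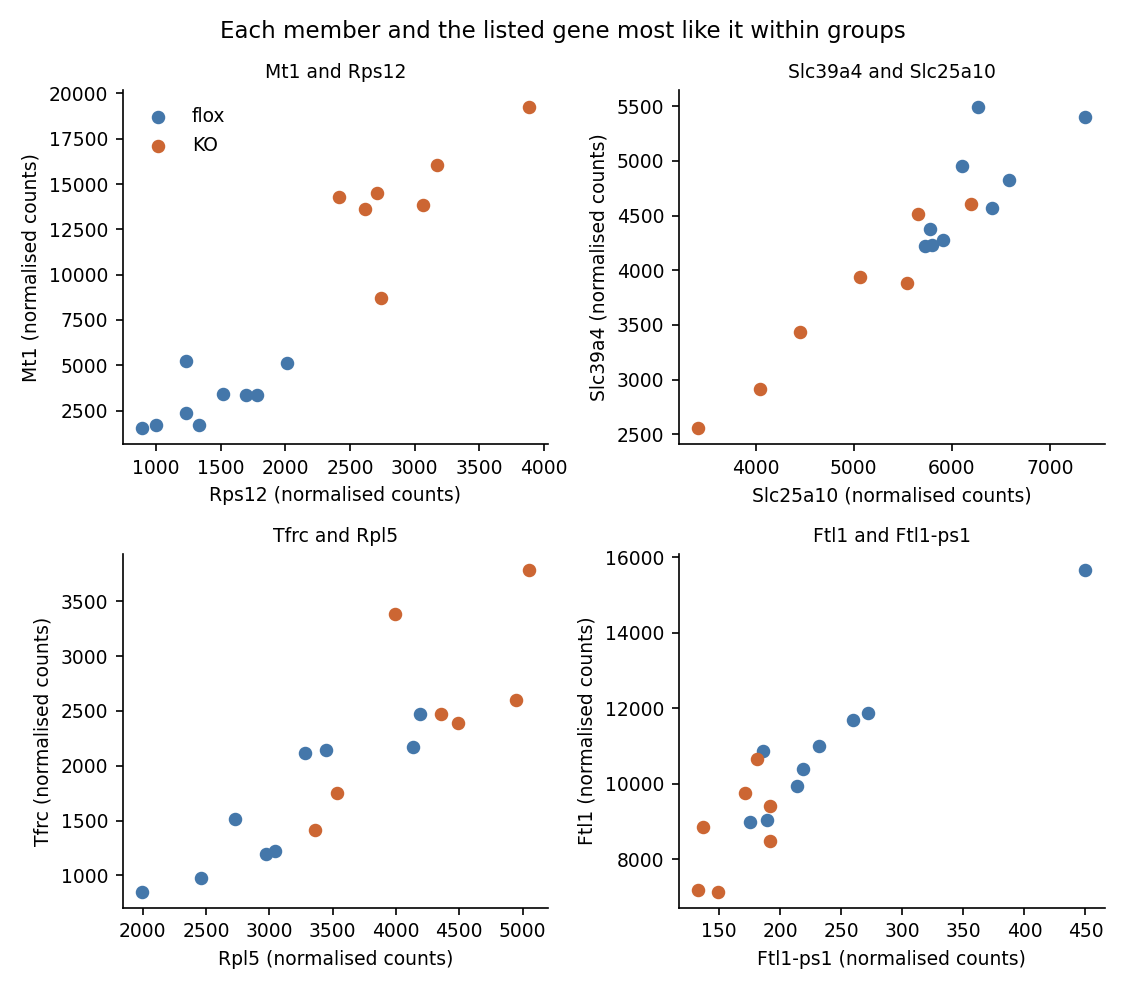
Normalised counts in 9 flox (blue) and 7 KO (orange) libraries of each member (y axis) against the listed gene most like it within groups (x axis), with axes that do not start at 0. Mt1 rises with Rps12 inside each group and is far higher in KO. The flox library at the top right of the Ftl1 panel is replicate 4.

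Other genes of metal handling were mostly not listed. Of 115 genes on 10 lists 15 were listed (13.0%), 4 higher and 11 lower in KO, and their median was -0.33 (log2, the authors' deposited table). Without the 4 members these were 11 of 111 (9.91%), 2 higher and 9 lower, against 14.8% of all genes adjusted over. The share of metal genes listed was thus no larger than that of all genes, though how many of the 111 were adjusted over is not known.

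Of 14 ZIP genes 4 were listed (28.6%), all lower in KO, against 7.81% of all genes listed as lower. The 4 include Slc39a4, a member chosen because it was listed, so the choice itself raises this share. How many of the 14 were adjusted over is not known. Slc39a5, a ZIP importer of the basolateral membrane of enterocytes, went from 4056 ± 533 normalised counts in flox (SD, n = 9) to 2860 ± 352 in KO (SD, n = 7), 1.42-fold lower. Slc39a1 was 1.25-fold lower by the deposited scaling, with the other sign under quantile normalisation, and Slc39a11 was also 1.25-fold lower. None of 10 ZnT exporters was listed, and Mt1 was the only metallothionein of 4. Of 6 regulators of metallothionein genes only Keap1, which holds back the stress factor NRF2, was listed (1.31-fold lower), and of 10 glucocorticoid-responsive genes only Cdkn1a (1.29-fold lower). The shares listed were 16.7% and 10%, against 14.8% of all genes adjusted over. Mtf1 and the glucocorticoid receptor gene Nr3c1 were not listed.

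In iron handling Tfrc was the only listed gene of 16 for uptake and export, a list that includes the importer gene Slc11a2 and the exporter gene Slc40a1. Of 7 genes of iron storage Ftl1 and Pcbp1, an iron chaperone that loads ferritin, were listed, and Pcbp1 was 1.17-fold lower (quantile normalisation gave both the other sign). Of 8 genes of iron sensing only Aco1, which encodes the aconitase that becomes iron regulatory protein 1 when it lacks its iron-sulfur cluster, was listed. It went from 5852 ± 705 (SD, n = 9) to 4385 ± 536 (SD, n = 7), 1.33-fold lower. Of 18 haem genes only the haem exporter gene Flvcr1 was listed, 1.28-fold lower. In the order given, 6.25%, 28.6%, 12.5% and 5.56% of these lists were listed, against 14.8% of all genes adjusted over. The shares for uptake and export and for storage include a member.

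Among genes of iron-sulfur cluster assembly Lyrm4, which encodes a partner of the sulfur donor enzyme, was listed as higher and was of low abundance. It went from 29.8 ± 15.2 normalised counts in flox (SD, n = 9) to 51.6 ± 10.2 in KO (SD, n = 7). Of 12 copper and manganese genes the copper chaperone genes Atox1 (1.32-fold) and Ccs (1.35-fold) were lower, and of 9 calcium and magnesium genes only Cnnm4 was listed (1.27-fold lower). The shares listed were 16.7% and 11.1%, against 14.8% of all genes adjusted over. With TMM scaling no listed gene of these lists changed sign.

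**Figure D4:**
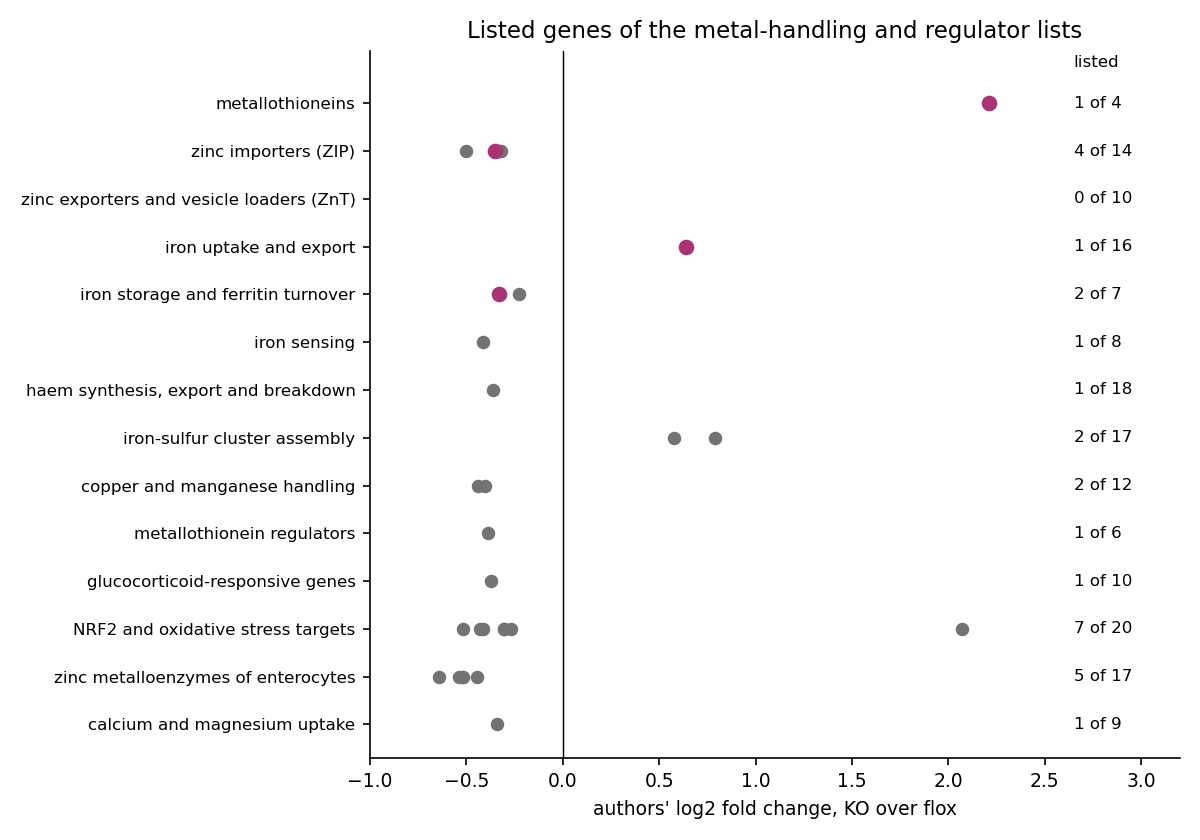
Fold change, KO over flox, on the log2 scale from the authors' table (x axis) for each listed gene on the metal-handling and regulator lists (rows), with the 4 members in purple and the number listed of all genes on the list at the right. Most points lie below 0, and Mt1 and Tfrc lie above it.

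Each scaling over the listed genes moved the log2 differences of the 4 members upward by similar amounts, which left the small negative values of Slc39a4 and Ftl1 nearest to 0. Over 11 alternatives other than leaving out single libraries, the log2 difference of Mt1 ran from 2.21 to 2.67 and that of Tfrc from 0.51 to 0.99. That of Slc39a4 ran from -0.47 to -0.045, and that of Ftl1, over 12, from -0.42 to 0.023.

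**Figure D5:**
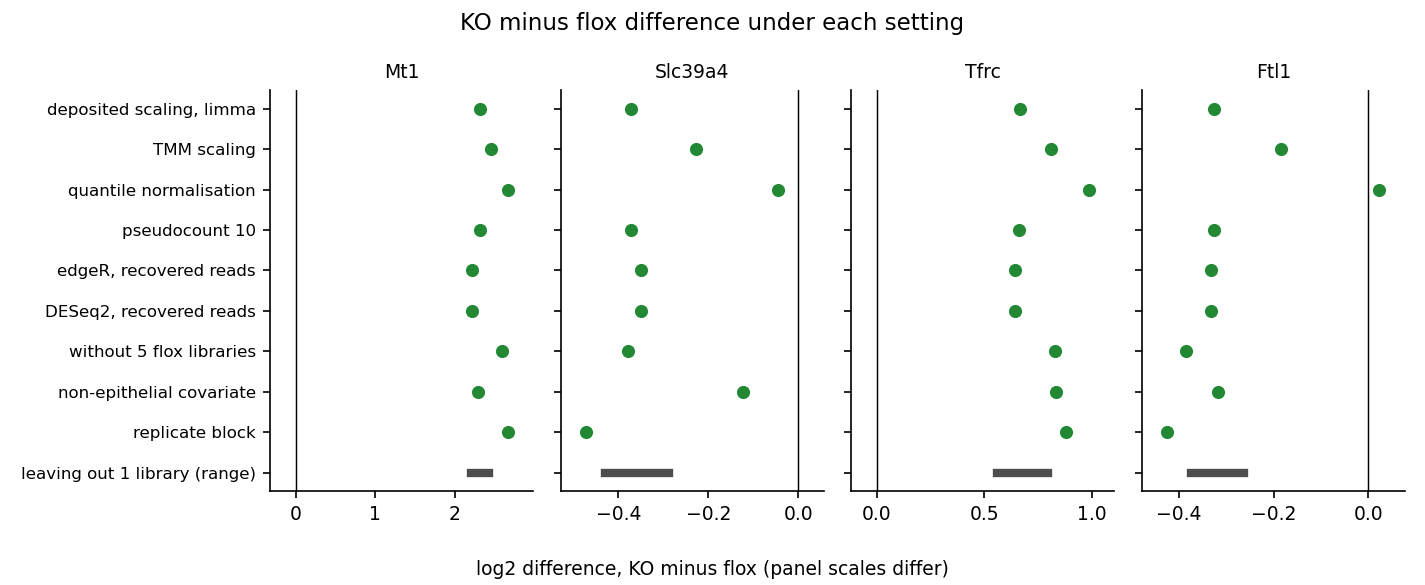
KO minus flox difference on the log2 scale (x axis, with a scale of its own in each panel) of each member under 9 settings (points) and the range when each of the 16 libraries was left out in turn (bars). Mt1 and Tfrc stay above 0 in all of them, Slc39a4 stays below 0, and Ftl1 crosses 0 under quantile normalisation over the listed genes.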

How the data were processed

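The deposited table gave, for each gene, a signal per library, namely read counts over a size factor of that library. The values show this, since 100% of the nonzero ones came out as whole reads (tolerance 0.0001). An automatic check could not test KO replicates 1 and 3. The authors' log2 fold change and p-value columns (p and adjusted p) were used as deposited. The tools named in the submitters' processing notes are DESeq2 1.20.0, featureCounts 1.5.0-p3 and HISAT2 2.0.5, with the build GRCm38 (mm10). The notes state no settings. By the labels' protocols, poly-T selected mRNA was made into libraries with a NEBNext Ultra kit.

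Differences are limma 3.58.1 coefficients (trend, robust) on log2(normalised count + 1) over the 2339 genes with a mean of at least 10. This scale understates changes of low genes. Alternatives used TMM and quantile scaling over the listed genes, other pseudocounts, and edgeR 4.0.16 and DESeq2 1.42.0 on recovered reads. The main limma fit, edgeR and DESeq2 were also run on simulated data, and the other alternatives were not. edgeR called 1443 genes (8.75% of 16488, unlisted genes set to a p of 1) and 418 without those 2 KO libraries. Correlations used exact permutations of all pairings, two-sided, with Benjamini-Hochberg adjustment.

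Named genes are the members, Ephb4, every listed gene on the metal and regulator lists, and the 3 genes most and least like each member. 1 gene that this rule names is not reported here. Members and lists were chosen with earlier results of these data known. The labels do not tie each library to a separate mouse, so p-values measure the spread between these libraries. No 2 libraries of a group were duplicates (smallest chi-square per degree of freedom 16.7). The smallest and largest size factors were 0.878 and 1.38.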

Additional observations from a re-analysis of the deposited data

Results flagged for a closer look

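Flox replicate 4 had 15662 normalised counts of Ftl1, and its gap to the next flox library exceeded Dixon's 95% limit for a group of 9. The near copy Ftl1-ps1 had 449.9 in the same library, and stood apart by the same measure. Of 10 gene and group sets checked, these 2 stood apart, and chance alone sets a library apart in about 1 in 20 groups. The 2 genes share most of their sequence, so these are not separate signals. Flox replicate 4 also held pancreatic transcripts at a sum of 30587, while the other 4 flox libraries with such transcripts had 8984 to 10392 of Ftl1. The part of pancreatic cells in this value was not tested.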

How the results depend on the processing

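Of the member differences, Mt1 and Tfrc moved by less than the replicate SD under every alternative run. That SD, on the log2 scale, was 0.56 for Mt1 and 0.54 for Tfrc, against 0.24 for Slc39a4 and 0.23 for Ftl1. Slc39a4 moved by more than its SD with quantile normalisation (-0.045) and with the non-epithelial covariate (-0.12). Ftl1 changed sign with quantile normalisation (0.023). The limit was thus wider for Mt1 and Tfrc, while quantile normalisation moved every member by a similar amount. The covariate was built from markers listed as higher in KO, so it follows the group and takes up part of the group difference. TMM and quantile scaling were computed over the listed genes only, which were selected for a group difference, and a scaling over all genes could not be run. Quantile scaling moved the median of all listed genes by 0.26, and the cause of the shifts was not tested. Leaving out each library in turn gave 2.21 to 2.43 for Mt1, -0.43 to -0.29 for Slc39a4, 0.56 to 0.79 for Tfrc and -0.38 to -0.26 for Ftl1. The replicate block over the 6 shared numbers gave 2.67, -0.47, 0.88 and -0.42. Same-numbered libraries were not steadily alike, since 3 of 6 pairs correlated above 0.1 and 1 of 6 flox libraries correlated best with its own number. These mixed values cannot show whether such libraries shared anything besides the number. With unlisted genes at a p of 1, the limma fit called 1269 of the listed genes (449 higher, 820 lower), 912 with TMM (723 higher, 189 lower), 355 with quantile scaling, 11 without the 5 flox libraries, 7 with the covariate 9 with the block and 518 to 1458 without 1 library each, with 615, 838 and 646 without flox replicates 3, 4 and 10 and 645, 622 and 518 without KO replicates 1, 5 and 7. edgeR called 1443, or 418 without KO replicates 1 and 3, and DESeq2 2239. None of the 12 correlations among members passed under TMM, a pseudocount of 10 or Spearman's rho, and none of them changed sign. The alternatives chosen after seeing the data were edgeR without KO replicates 1 and 3 and Ftl1 summed with Ftl1-ps1. The unlisted genes limit what the table can show.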

Other observations

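Genes of oxidative stress defence and of zinc-dependent digestion, lists that border on metal handling, were mostly lower in KO where they were listed. Of 20 NRF2 and oxidative stress targets 7 were listed (35.0%, against 14.8% of all genes adjusted over), 1 higher and 6 lower. Sod1, the copper and zinc superoxide dismutase, went from 6926 ± 915 normalised counts in flox (SD, n = 9) to 4832 ± 826 in KO (SD, n = 7), 1.43-fold lower. Catalase (Cat) was 1.33-fold lower, and Pgd and Tkt of the pentose phosphate pathway were 1.24-fold and 1.23-fold lower, Tkt with the other sign under quantile normalisation. The cystine importer gene Slc7a11 was the higher one, at 15.0 ± 20.0 in flox and 63.0 ± 44.7 in KO, with ranges of 1.91 to 64.5 and 12.1 to 134.7 that overlap. Osgin1 was 1.35-fold lower, and G6pdx was lower by the authors' deposited table (log2 -0.27).

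Of 17 zinc metalloenzyme and related genes of enterocytes 5 were listed (29.4%, against 14.8% of all genes adjusted over), all lower. Ace, a brush border peptidase, went from 46223 ± 9831 (SD, n = 9) to 29582 ± 8904 (SD, n = 7), 1.56-fold lower. Enpep (1.36-fold), Mep1a (1.43-fold), Naaladl1 (1.44-fold) and the sorbitol dehydrogenase gene Sord (1.45-fold) were also lower. Since 712 of 768 abundant listed genes were lower, this direction is not particular to these lists. Markers of mature enterocytes were lower in the same libraries, and their part in these values was not tested.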
